A study of Homo sapiens with 29 samples.

Results

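The libraries described here are the 10 of 29 in the series that came from COLO320DM xenografts given vehicle and collected at 48 h. They were chosen by their title alone, so no measured value entered the choice. COLO320DM is an established human colorectal adenocarcinoma line, and the tumors were grown in mice that, per the series' design text, were randomized once tumors had reached a set mean size. The other libraries came from tumors given a helicon peptide against β-catenin/TCF (Helicon4_30mpk and Helicon4_100mpk) or the peptide labelled Helicon4neg_30mpk, and of these the 8 Helicon4neg_30mpk libraries are used below for comparison. The strain, sex and age of the hosts and the composition of the vehicle are not given in the sources used here, and the labels number the replicates without saying whether each is a separate mouse. P-values therefore measure the spread between these libraries.

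In canonical Wnt signaling, β-catenin (CTNNB1) is held low by a destruction complex built on APC, AXIN and GSK3. When that complex fails, β-catenin enters the nucleus, binds TCF and LEF factors and switches on target genes, several of which (AXIN2, NKD1, RNF43, ZNRF3, NOTUM) feed back to restrain the pathway. Most colorectal cancers carry a lesion in this complex, and COLO320DM is known for truncated APC, for amplified MYC carried on extrachromosomal DNA, and for neuroendocrine traits.

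The table held 13492 genes as CPM, read counts scaled to library size, here after the authors' between-library scaling. Vehicle depth, recovered from the smallest step between values, was 26.8 to 60.9 M counted reads with a median of 43.7 M. Title codes of unstated meaning divide the vehicle libraries into 1 of code SH7078 (library 1), 7 of code SH7079 (libraries 2 to 8) and 2 of code SH7080 (libraries 9 and 10). In bulk tumor RNA, fewer cells of a type and less RNA per cell cannot be told apart. The labels name no mouse genome, so reads from host stroma may be counted under human genes.

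Mitochondrial transcripts headed the vehicle tumors. MT-CO1, a subunit of cytochrome c oxidase, ranged from 11887 to 20969 CPM over the 10 libraries with a median of 16874. MT-ND4, a subunit of respiratory complex I, came next at a mean of 12543 ± 2390 CPM (SD, n = 10), followed by the translation elongation factor EEF1A1 at 11537 ± 1287 CPM. The 13 mitochondrial protein-coding genes took 6.71% ± 1.01 (SD, n = 10) of each library and the 82 cytosolic ribosomal protein genes 13.4% ± 2.33. The 50 genes with the highest mean CPM together took 18.8% ± 1.68.

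Dividing by gene length reordered the list. CPM counts reads, so a long gene scores higher than a short one with as many transcripts, and CPM per kilobase (CPM per kb) divides by the length the table gives. Of the first 15 genes by CPM, 10 were also among the first 15 by CPM per kb, and of the first 50, 32 were shared. The median length of the first 50 was 2942 bases by CPM and 1446 bases by CPM per kb. EEF1A1 moved from rank 3 to rank 15, HNRNPA1, an RNA-binding splicing protein, from rank 12 to rank 52, and the short MT-ND3 from rank 79 to rank 8. Several copies of the 5.8S ribosomal RNA gene RNA5-8S5 also entered the upper ranks per kb, but they are near-identical and share reads, so their levels are uncertain.

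**Figure D1:**
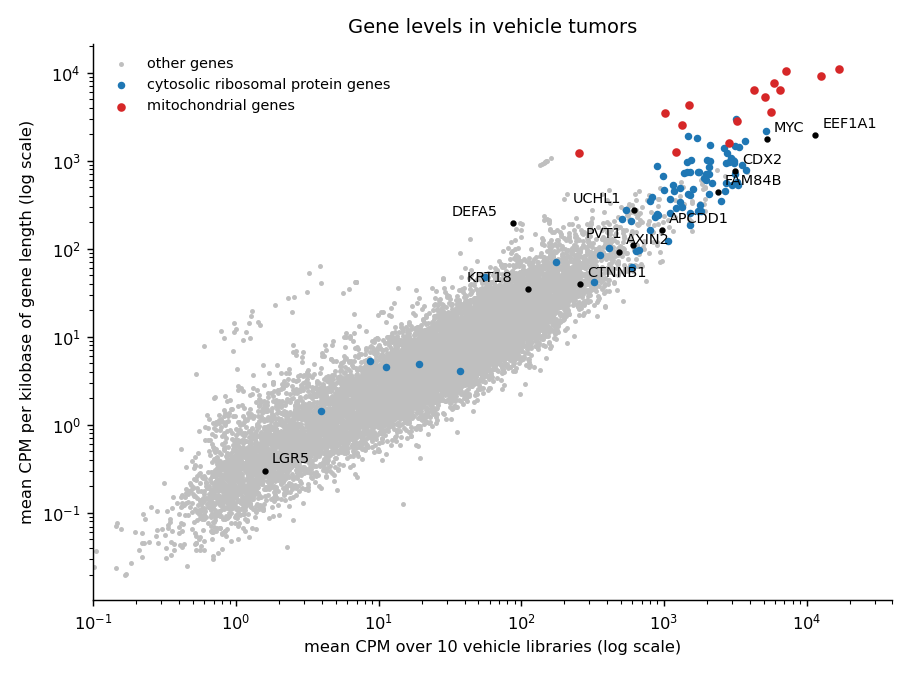
Each point is 1 gene, with its mean CPM over the 10 vehicle libraries on the horizontal axis and its mean CPM per kilobase of gene length on the vertical axis, both on log scales. Mitochondrial genes (red) and most cytosolic ribosomal protein genes (blue) fill the upper right corner, where EEF1A1 (11537 CPM) and MYC (5244 CPM) also lie.

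MYC, the growth-promoting transcription factor, was the 8th gene by CPM. It ranged from 3727 to 6534 CPM with a median of 5183, and every library lay far above the table's median gene, whose mean was 28.03 CPM. On its own it took 0.513% ± 0.0791 (SD, n = 10) of each library. Per kb it stood at 1747 ± 281, rank 18, and outside the mitochondrial and ribosomal protein genes only EEF1A1 was higher. Its rank per kb stayed between 17 and 18 when each library was left out in turn.

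Of the listed neighbours of MYC on chromosome 8, 2 were high. The long noncoding RNA PVT1, next to MYC on chromosome 8, was at 603 ± 74.0 CPM and 110 CPM per kb. FAM84B, also on chromosome 8, was at 2377 ± 497 CPM and 440 CPM per kb. The others were far lower, with POU5F1B at 10.5, CASC11 at 8.82, CASC8 at 3.88 and TMEM75 at 2.52 CPM per kb. CDX2, the homeobox factor that specifies intestinal identity, lies on chromosome 13 and ranged from 2049 to 3944 CPM with a median of 3185. At 761 CPM per kb it ranked 51. PDX1, a homeobox gene close to CDX2 on chromosome 13, was at 44.4 ± 5.78 CPM and 17.8 CPM per kb. The 2 neighbours on chromosome 13 thus had very different levels in the same libraries. Copy number was not measured here.

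The lineage genes gave a mixed picture in which CDX2 was high and most other intestinal genes were low or not among the genes in the table. Levels in this paragraph are mean CPM per kb, for which the median gene stood at 5.29 and the upper decile at 33.03. The simple-epithelium keratins KRT18 (34.5) and KRT8 (25.5) and the surface adhesion protein EPCAM (11.1) were present, whereas KRT19 (0.295), CLDN4 (0.252) and the splicing regulator ESRP1 (0.217) were in the lowest 6% of genes by this measure. CDH1, CLDN3, CLDN7, GRHL2 and ELF3 are not analysed here because the table has no row for them. Of the 14 intestinal transcription factors and structural genes listed, 6 were in the table. After CDX2 the highest was KLF5 (4.28), below the median gene. The fatty acid binding protein of enterocytes FABP2 reached 12.8, but KRT20 (2.50) and the carbonic anhydrase CA2 (1.99) were low and 11 of 16 enterocyte genes had no row. ATOH1, which specifies secretory cells, was at 1.29, and 9 of 10 goblet and secretory genes had no row.

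Single genes of other lineages were high. DEFA5, an antimicrobial defensin of Paneth cells, was at 48.8 to 179 CPM with a median of 75.7, or 194 CPM per kb, while the other 6 Paneth cell genes listed had no row. The ubiquitin hydrolase UCHL1, abundant in neurons and neuroendocrine cells, ranged from 487 to 820 CPM with a median of 638 and reached 272 CPM per kb. The neuronal enolase ENO2 was at 21.1 and the vesicle fusion protein SNAP25 at 10.7 CPM per kb, but the synaptic vesicle protein SYP was at 1.54 and CHGB at 0.442. HDC, which makes histamine, stood at 118 CPM per kb, the neuropeptide precursor GAL at 52.7 and the hormone precursor POMC at 7.30. TH, which starts catecholamine synthesis, was at 1.66. Of 18 neuroendocrine genes 11 had no row, CHGA, INSM1 and NEUROD1 among them. The intermediate filament vimentin (VIM) was at 79.9 CPM per kb, above KRT8 and KRT18 on the same scale.

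Genes typical of stroma and vessels were present at lower levels. The matrix protease MMP2 was at 31.6 CPM per kb, the proteoglycan BGN at 18.5 and the vessel-associated secreted protein EGFL7 at 18.0. The fibrillar collagens COL1A1 and COL3A1 were at 1.257 and 1.75, the endothelial junction protein CLDN5 at 4.15 and the leukocyte phosphatase PTPRC at 2.50. Defining markers such as PECAM1, CDH5, VWF, CD68, DCN and LUM had no row. The 4 endothelial genes in the table summed to 44.8 to 97.8 CPM per library, the 8 fibroblast genes to 189 to 286 CPM and the 5 leukocyte genes to 36.1 to 50.2 CPM. Whether these reads came from tumor or host was not tested.

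Lists of cell cycle, ribosome assembly, ATF4 and unfolded protein response, and heat shock genes had medians well above the median gene. The 17 immediate early genes in the table, which answer growth factors and stress within minutes, had a median below it (4.73 CPM per kb). All 22 S phase genes were in the table with a median of 37.4 CPM per kb, led by PCNA, the sliding clamp of DNA replication (309 to 627 CPM, median 368), and the helicase subunit MCM7 (95.7 CPM per kb). All 22 genes of mitosis had a median of 29.8, led by the ubiquitin carrier UBE2C (149). Ribosome assembly genes had a median of 44.7, with the nucleolar proteins NPM1 (504) and NCL (218) and ODC1 (307), which starts polyamine synthesis, at the front. The joint list of ATF4 and unfolded protein response genes had a median of 44.8, with HSP90B1 (333), ATF4 (254) and HSPA5 (233) highest. The 11 heat shock genes had a median of 118, with HSP90AA1 at 368.

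Interferon-induced genes were low by the same measure. Of the 20 present, 14 had a mean of at least 1 CPM, and their median was 1.18 CPM per kb. IFI6 (50.9) and ISG15 (18.6) stood above the rest. B2M, the light chain of MHC class I, was at 67.8 and HLA-B, a heavy chain, at 16.5. Targets of p53 had a median of 2.98 with BAX (26.9) highest, and genes of cholesterol synthesis a median of 14.9, with FDFT1, which starts the sterol branch, at 35.4. On the list of hypoxia and glycolysis genes ENO1 (494) and LDHA (289) were highest, and GAPDH and TPI1, glycolytic enzymes outside that list, were at 607 and 506.

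Genes of the Wnt pathway were present from ligand to target, but the ligand and receptor lists had medians below the median gene. In the following paragraphs levels are again mean CPM per kb. The ligand carrier WLS was the highest of the secretion genes at 34.3, and the ligands WNT11 (27.9) and WNT10B (12.8) were above the median gene, whereas WNT3 (3.24) and WNT5A (3.70) were below it and WNT4 (0.0737) was near the bottom of the table. Of 19 ligand and secretion genes listed 12 were in the table and 10 had a mean of at least 1 CPM. Among receptors FZD10 (20.4), the co-receptor LRP5 (14.5) and FZD2 (14.2) led. FZD8 was at 10.1, FZD6 at 5.55 and FZD7 at 4.56, while FZD3, FZD5, FZD1 and FZD9 ran from 1.70 down to 0.400. The ubiquitin ligases RNF43 and ZNRF3, which remove Frizzled receptors from the surface, were at 22.1 and 12.6.

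Secreted and surface antagonists spanned the range of the pathway, with a median of 5.17 over the 12 in the table, close to the median gene. APCDD1, a membrane inhibitor of Wnt, was at 163 ± 11.9 (SD, n = 10) and NOTUM, an enzyme that strips the lipid from Wnt ligands, at 128 ± 24.3. KREMEN1, a receptor for Dickkopf proteins, was at 53.7, DKK4 at 36.3, WIF1 at 19.9 and DKK1 at 7.73. SOSTDC1 (2.61), KREMEN2 (1.99), SFRP5 (1.77), DKK3 (0.991), SFRP2 (0.612) and DKK2 (0.147) were low, and SFRP1 and SFRP4 had no row. Inside the cell, β-catenin (CTNNB1) was at 39.3 ± 3.43, the signal relay protein DVL3 at 35.9 and APC at 3.29. Of the 4 TCF/LEF genes, through which β-catenin reaches DNA, LEF1 (51.3 ± 4.34) was the highest, followed by TCF7L2 (6.08), TCF7 (4.58) and TCF7L1 (0.196). The lowest LEF1 library was above the highest TCF7 and TCF7L2 library, while TCF7 and TCF7L2 lay close together. Among the 17 genes of the destruction complex and its relay the median was 9.04, and among the 18 nuclear genes 6.82. The kinase CSNK1E (33.5) and the relay protein DVL1 (33.4) were close to DVL3, and the co-repressor AES (32.9) and the β-catenin adaptor PYGO2 (22.5) followed CTNNB1.

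The 12 core targets had a median of 24.6, at the 86.0th percentile of all genes. AXIN2, the scaffold of the destruction complex and a direct target, ranged from 397 to 541 CPM with a median of 500, or 92.4 CPM per kb. NKD1, which binds Dishevelled, was at 32.5, the stem cell factor ASCL2 at 27.2 and the Sp-family factor SP5 at 15.4. LGR5, the intestinal stem cell receptor, was at 0.303, and its libraries spanned 0.647 to 2.34 CPM with a median of 1.72. The core targets thus ran from NOTUM in the highest 2% to LGR5 in the lowest 6% of genes by CPM per kb. Among other stem cell genes the RNA-binding protein MSI1 was at 18.2 and the receptor TNFRSF19 at 13.4, whereas OLFM4, SMOC2 and PROM1 had no row.

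**Figure D2:**
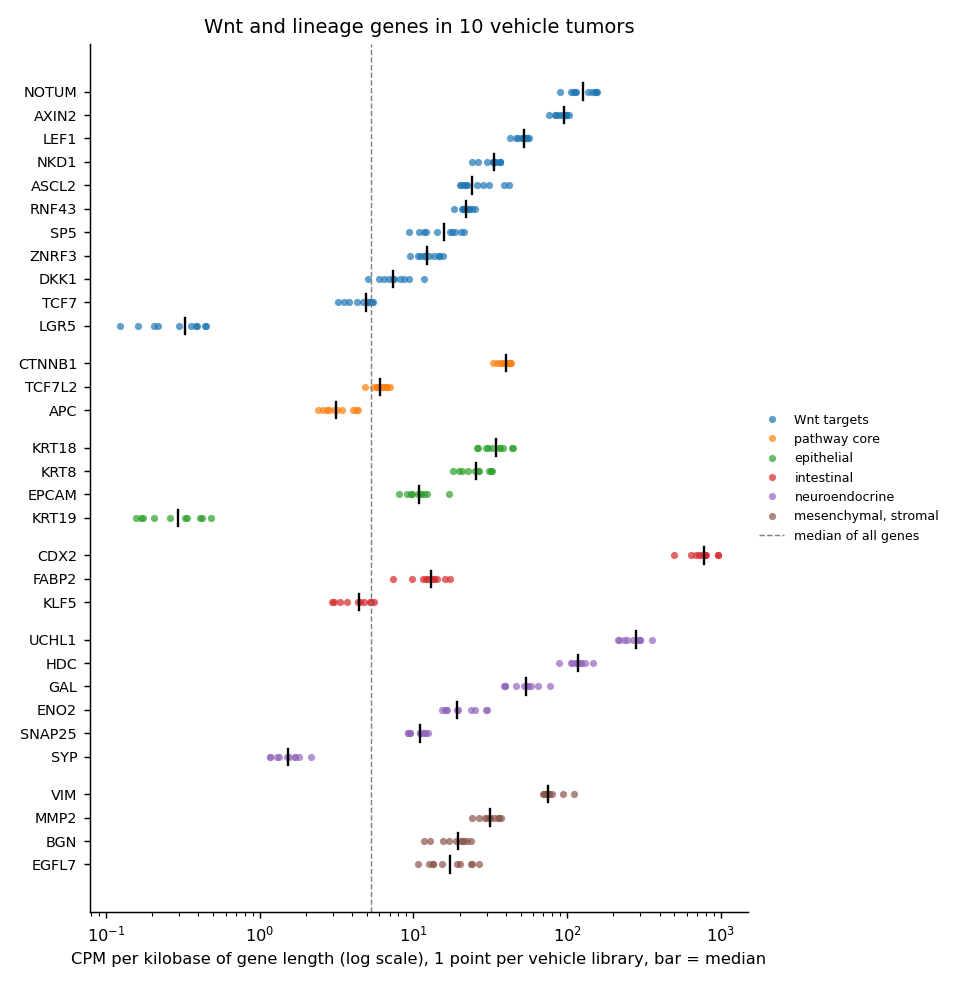
Each point is the level of 1 gene in 1 of the 10 vehicle libraries, in CPM per kilobase on a log axis, the black bar is the median of the libraries and the dashed line the median of all genes (5.29). CDX2 (761), UCHL1 (272), NOTUM (128) and HDC (118) lie to the right, and LGR5 (0.303) and KRT19 (0.295) to the left.

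The window before the start of SP5 is shown because it is the core target whose window held the most TCF-type sequences. The windows were the 250 bases before a gene's start in RefSeq (GRCh38.p14). A TCF-type sequence was CTTTGAT or CTTTGAA on either strand, and 5.94% of the 35116 windows held at least 1. Of the 12 core targets 5 had a window, and SP5 (3 matches) and DKK1 (1 match) held the sequence. The matches are in capitals, and TTCAAAG is CTTTGAA read from the other strand.
SP5 promoter, chr2:170715087-170715336, plus strand: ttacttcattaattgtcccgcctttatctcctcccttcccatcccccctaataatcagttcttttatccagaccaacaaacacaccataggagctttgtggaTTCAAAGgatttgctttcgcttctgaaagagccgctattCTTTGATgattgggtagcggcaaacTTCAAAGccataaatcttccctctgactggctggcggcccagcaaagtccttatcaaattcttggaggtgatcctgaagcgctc
The 3 matches in SP5 began 148 to 84 bases before the start. A match describes letters only, and other distances were not searched.

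Most genes varied little between the vehicle libraries. Spread here is the SD of log2(CPM + 1) over the 10 libraries, taken for the 10839 genes with a mean of at least 5 CPM. Its median was 0.23. Counting alone would give 0.0353, and the rest holds differences between tumors and between library preparations, which cannot be told apart. Only 176 genes (1.62%) reached an SD of 0.5 and 10 reached 1. Across genes, the SD in vehicle and the SD in the 8 Helicon4neg_30mpk libraries had a Spearman correlation of 0.621, given as a description because genes are not independent replicates. Of the 100 most variable genes in vehicle, 80 were in the most variable 10% in Helicon4neg_30mpk.

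Wnt genes differed among themselves in spread. The core targets had a median SD of 0.27, and the 30 listed targets, of which 28 were in the table, one of 0.24, against 0.23 for all genes. AXIN2 (0.14), LEF1 (0.13) and RNF43 (0.13) were well below the median gene, as were CTNNB1 (0.13) and APCDD1 (0.10), and NKD1 (0.21) and ZNRF3 (0.22) just below it. MYC was near the median at 0.24. DKK4 spread most, with an SD of 0.60: it ranged from 15.8 to 51.9 CPM with a median of 27.5, and libraries 5, 7 and 10 were highest. SP5 (0.40), ASCL2 (0.38), DKK1 (0.33), NOTUM (0.28) and TCF7 (0.27) also spread more than the median gene. The 5 most stable genes at a mean of at least 100 CPM were GLOD4, GID8, CKAP4, WDR33 and DCTD, with SDs of 0.05 to 0.06. In Helicon4neg_30mpk the SDs of GLOD4 and CKAP4 were 0.25 and 0.29, above that group's median gene (0.24).

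HSPA6, a strictly inducible member of the HSP70 chaperone family, was the most variable gene. It ranged from 2.62 CPM in library 2 to 107 CPM in library 4 with a median of 25.2, an SD of 1.69. Libraries 4, 10, 1 and 8 were above 61 CPM, library 9 was at 29.4 and the others were at or below 20.97 CPM. The chaperone genes HSPA1A (94.95 to 834 CPM, SD 0.96) and HSPA1B (146 to 1333 CPM, SD 0.94) were also among the 15 most variable. These 2 genes are near-identical copies and share reads, so they count as 1 observation. The nuclear noncoding RNA MALAT1 ranged from 76.8 to 548 CPM with a median of 137 and was above 500 CPM in libraries 4 and 6 only. The homeobox genes HOXC8 (2.74 to 21.4 CPM) and HOXA9 (2.74 to 26.2 CPM) were highest in libraries 1 and 4.

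Some variable genes rested on 1 library. The U1 small nuclear RNA genes RNVU1-7, RNVU1-18 and RNU1-1 to RNU1-4 had near-equal values in each library because near-identical copies share reads. They stood at about 37.7 CPM in library 10 against a median near 2.08 CPM (RNU1-1), and the next library was at 10.0 CPM. The short entries MIR3648-1 and MIR3648-2 were highest in library 4 at 20.6 and 18.4 CPM. NCR3LG1, a ligand of the natural killer receptor NKp30, ranged from 1.74 CPM in library 6 to 50.9 CPM in library 9, and its order followed the gene-length pattern described below.

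**Figure D3:**
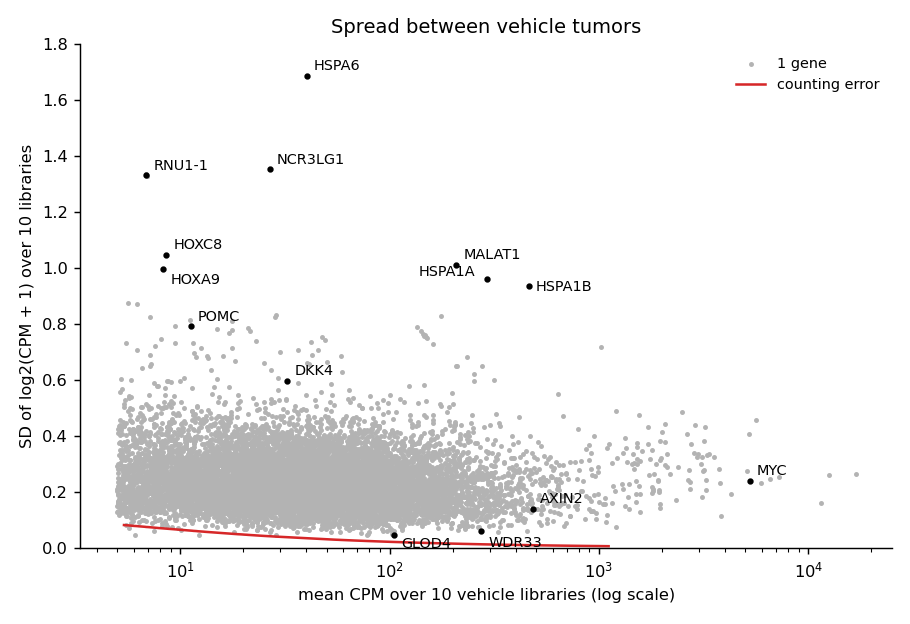
Each point is 1 gene with a mean of at least 5 CPM, with the mean over the 10 vehicle libraries on the horizontal log axis and the SD of log2(CPM + 1) on the vertical axis. The red line is the running median of the SD that counting alone would give, and HSPA6 (1.69) stands highest while AXIN2 (0.14) and GLOD4 (0.05) lie near the floor.

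The largest pattern among the vehicle tumors followed gene length. The length slope of a library is the least-squares slope of each gene's log2 deviation from its vehicle mean on log2 length, so a positive slope means that longer genes read higher in that library. Slopes ran from -0.196 in library 6 through -0.109 in library 4 and -0.102 in library 8 to 0.124 in libraries 1 and 9. Libraries 2, 3 and 5 were near 0, at -0.00754, 0.00972 and 0.00372. The 3 libraries with codes other than SH7079 (0.124, 0.124 and 0.0869) all lay above the highest SH7079 library (0.0661, library 7). With genes divided into 5 bins of length, the shortest bin (median 2238 bases) of library 6 read 0.32 above the vehicle mean on the log2 scale and its longest bin (median 10532.5 bases) -0.23. In library 9 the same bins read -0.19 and 0.14. In the 8 Helicon4neg_30mpk libraries slopes ran from -0.347 (library 2) to 0.166, with a median of 0.0992.

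**Figure D4:**
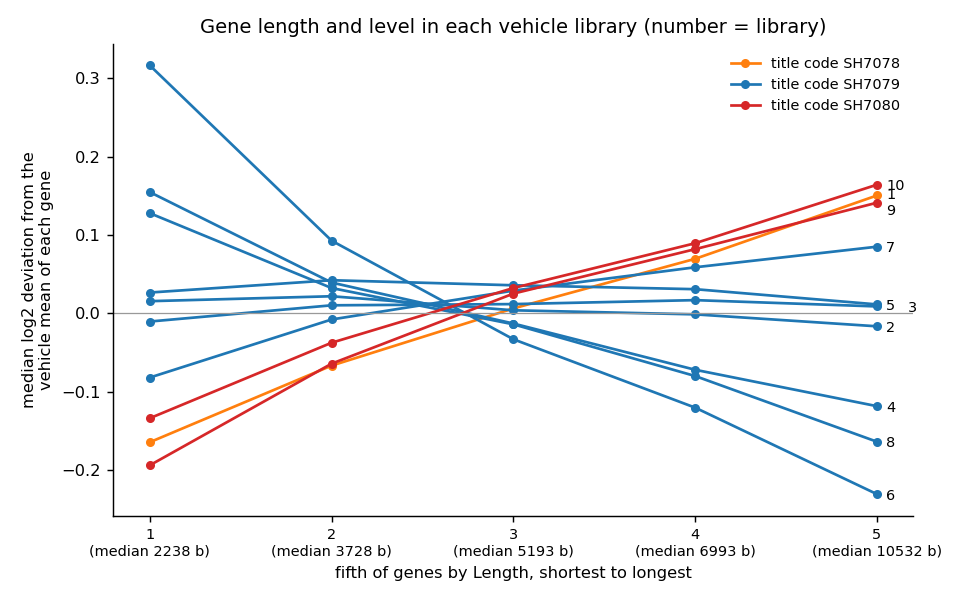
Each line is 1 vehicle library, coloured by title code and numbered at the right, and shows the median log2 deviation from the vehicle mean for genes in each of 5 bins of gene length. Library 6 falls from 0.32 to -0.23 and library 9 rises from -0.19 to 0.14, and the lines cross near the middle bin.

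The first principal component held 46.4% of the variance of the vehicle libraries, and its scores had a Pearson correlation of 0.977 with the length slope. Its gene loadings were related to length (Spearman 0.547 across genes) and as strongly to the GC content of the longest transcript (-0.549). Length and GC were themselves related across genes (Spearman -0.261). With GC as a second term the slopes ran from -0.217 in library 6 to 0.102 in library 9. Libraries 1, 9 and 10 stayed above all SH7079 libraries. The second component held 20.05% of the variance, and its loadings followed GC (Spearman 0.606) more than length (0.147).

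Among 1641 genes with a mean of at least 20 CPM and an SD of at least 0.3, 307 had a correlation with the slope below -0.9 and 178 above 0.9. The first set had a median length of 2225 bases and a median GC of 59.6%, the second 9626 bases and 43.4%, against a median length of 5037 bases for all 1641. The 307 included 14 of the 33 nuclear genes named for subunits of the respiratory chain or ATP synthase, 15 of the 21 mitochondrial ribosomal protein genes and 14 of the 50 cytosolic ribosomal protein genes in the 1641. None of the respiratory chain or cytosolic ribosomal protein genes was among the 178. These counts describe genes ordered on the same libraries and are no test.

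COX6B1, a subunit of cytochrome c oxidase, had the lowest correlation (-0.99) and ranged from 108 CPM in library 1 to 239 CPM in library 6 with a median of 150. COX4I1, a subunit of the same enzyme, CHCHD6, a mitochondrial inner membrane protein, CUEDC2, TCEB2, a subunit of the elongin complex, and TRAPPC2L, a vesicle tethering subunit, followed. At the other end the ubiquitin protease USP34 (0.99) ranged from 23.5 CPM in library 6 to 89.4 CPM in library 9 with a median of 57.0. RBL2, a retinoblastoma family protein, ERCC6L2, MFAP3, the ubiquitin ligase UBE4A and the amino acid transporter SLC7A6 completed the set. Lengths ran from 936 (COX6B1) to 4792 bases (COX4I1) at the low end. At the other end they ran from 4792 (MFAP3) to 18125 bases (USP34). COX4I1 and MFAP3 were thus equally long, so length alone did not separate them. These 12 genes had the same sign in the 8 Helicon4neg_30mpk libraries, which had no part in choosing them: COX6B1 had a correlation of -0.996 there, and -0.965 without library 2. For USP34 these were 0.996 and 0.954. Over all genes at 5 CPM the gene-by-gene correlations in the 2 groups had a Spearman correlation of 0.833, and 0.838 without Helicon4neg_30mpk library 2. NCR3LG1 had a correlation of 0.95 with the slope in vehicle, and its SD fell from 1.35 to 0.43 after a linear term for the slope.

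Of 12 library measures set against the slope over the 10 vehicle libraries, 2 passed a permutation test of Pearson's r after Benjamini-Hochberg adjustment. The share of cytosolic ribosomal protein genes fell as the slope rose (r = -0.870, adjusted p = 0.0183; Spearman's rho = -0.697, adjusted p = 0.180). Without the 2 libraries farthest from the median slope (6 and 9), r was -0.761, and within the 7 SH7079 libraries it was -0.929. The mean log2 level of the 4 endothelial genes fell with it as well (r = -0.835, adjusted p = 0.0183; rho = -0.818, adjusted p = 0.0631), with -0.760 without libraries 6 and 9 and -0.625 within SH7079. Ribosomal protein genes are short, and the 4 endothelial genes (2553 to 3935 bases) are all shorter than the median gene (4918 bases). Not every measure of short genes fell with the slope: the mitochondrial share, also from short genes, had r = 0.152. Short genes can still carry a measure down as the slope rises, so these 2 relations are no evidence apart from the length pattern. Both missed the threshold without library 1, 6 or 8, and the endothelial one also without library 9. Depth (r = -0.288), the mitochondrial share (0.152), the S phase score (-0.0241) and the core Wnt score (0.192) did not pass. RNA integrity was not given in the sources used here, and its part in the pattern was not tested.

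The third component held 15.1% of the variance, with a Spearman correlation of 0.0749 between loadings and length, and libraries 1 and 4 scored highest on it. HSPA6 itself had a correlation of 0.0844 with the length slope. In vehicle, where the genes were picked for it, HSPA6 had correlations of 0.91 with HSPA1A, 0.89 with the co-chaperone DNAJB1, 0.93 with RGS2, a regulator of G protein signaling, 0.92 with FOS and 0.80 with HOXC8, and of -0.77 with CES1 and -0.69 with POMC. Of 23 HOX genes at 5 CPM, 11 had a correlation above 0.5 with HSPA6 in vehicle, against 4.94% of all genes, and 3 did in Helicon4neg_30mpk, against 18.3% of all genes there.

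The same relations were then measured in the 8 Helicon4neg_30mpk libraries. These libraries did not enter the vehicle correlations, but the 26 genes were chosen with earlier results of these data known. The tests below are therefore not a clean check of the vehicle relations. In the 8 libraries HSPA6 ranged from 3.27 to 71.0 CPM with a median of 29.7 and was again the most variable gene. In exact permutation tests of 26 genes, DNAJB1 (r = 0.987, adjusted p = 0.00129; rho = 0.952, adjusted p = 0.0148) and the HSP110 chaperone HSPH1 (r = 0.885, adjusted p = 0.00129; rho = 0.976, adjusted p = 0.0103) passed by both measures. RGS2 also passed by both in the exact test (r = 0.894, adjusted p = 0.0112; rho = 0.905, adjusted p = 0.0297). HSPA1B and HSPA1A passed the exact test by r (0.940 and 0.913, adjusted p = 0.0290 and 0.0350) and not by rho (adjusted p = 0.159 and 0.258), and r was 0.523 and 0.420 without the 2 libraries farthest from the median HSPA6. HOXC8 passed the exact test by rho (0.905, adjusted p = 0.0297) and not by r (0.770, adjusted p = 0.0873). HOXA9 (r = 0.345), HOXD9 (-0.143), FOS (0.675), BNIP3 (0.653), POMC (-0.197) and CES1 (-0.228) did not pass in the exact test, with 8 libraries. These values rested on few libraries: without the 2 farthest from the median HSPA6, r was 0.90 for HOXA9, 0.952 for HOXD9 and -0.854 for FOS. Whether the groups differ in these correlations was not tested.

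**Figure D5:**
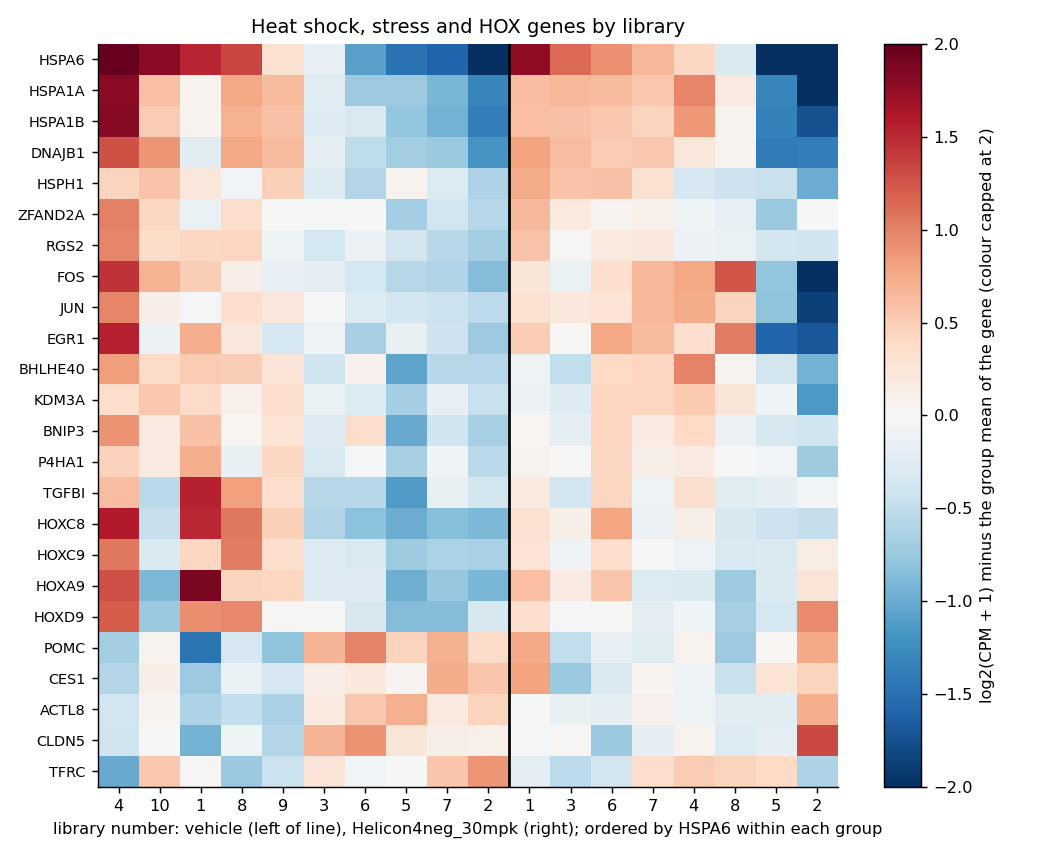
Colour shows log2(CPM + 1) minus the gene's mean in its group, capped at 2, for 24 genes (rows) in the 10 vehicle libraries and the 8 Helicon4neg_30mpk libraries (columns), ordered by HSPA6 within each group. DNAJB1 and HSPH1 follow HSPA6 on both sides of the line, while for HOXD9 the correlation with HSPA6 is 0.66 on the vehicle side and -0.14 on the other.

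The windows of the chaperone genes are shown because heat shock factors bind inverted repeats of GAA. A pair was GAANNTTC or TTCNNGAA, both of which read the same on either strand, and 11.6% of the 35116 windows held at least 1. A run of 3 units (GAANNTTCNNGAA or TTCNNGAANNTTC) contains 2 overlapping pairs and was in 0.441% of windows. All 7 of HSPA6, HSPA1A, HSPA1B, DNAJB1, HSPH1, ZFAND2A and RGS2 had a window. HSPA6 held a run of 3 units and 1 further pair, HSPA1A, HSPA1B and ZFAND2A held 1 pair each, and 1 of 3 DNAJB1 windows held 2 pairs, whereas no window of HSPH1 or RGS2 held any. Pairs are in capitals, and each sequence is read along the gene's own strand.
HSPA6 promoter, chr1:161524290-161524539, plus strand: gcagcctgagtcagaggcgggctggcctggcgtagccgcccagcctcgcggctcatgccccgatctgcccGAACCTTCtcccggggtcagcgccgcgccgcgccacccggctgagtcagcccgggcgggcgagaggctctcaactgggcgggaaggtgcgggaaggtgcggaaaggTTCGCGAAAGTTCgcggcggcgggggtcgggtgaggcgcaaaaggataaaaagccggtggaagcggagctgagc
HSPA1A promoter, chr6:31815293-31815542, plus strand: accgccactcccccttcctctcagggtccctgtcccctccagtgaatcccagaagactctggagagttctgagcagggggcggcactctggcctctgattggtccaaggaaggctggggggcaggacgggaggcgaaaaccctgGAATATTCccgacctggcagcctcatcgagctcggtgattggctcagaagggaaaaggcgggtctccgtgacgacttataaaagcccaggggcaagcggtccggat
HSPA1B promoter, chr6:31827488-31827737, plus strand: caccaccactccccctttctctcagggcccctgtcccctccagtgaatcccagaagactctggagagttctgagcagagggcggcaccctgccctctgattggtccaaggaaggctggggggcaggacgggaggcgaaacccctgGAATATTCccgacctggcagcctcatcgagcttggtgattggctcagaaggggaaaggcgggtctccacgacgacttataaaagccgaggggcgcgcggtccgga
DNAJB1 promoter, chr19:14518398-14518647, minus strand: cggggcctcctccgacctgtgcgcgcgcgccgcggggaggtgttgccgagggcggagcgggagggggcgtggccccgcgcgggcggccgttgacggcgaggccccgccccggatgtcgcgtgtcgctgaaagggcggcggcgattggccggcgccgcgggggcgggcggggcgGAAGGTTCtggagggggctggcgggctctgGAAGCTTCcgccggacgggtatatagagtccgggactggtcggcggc
The windows of HSPA1A and HSPA1B held the same pair, GAATATTC, 106 and 105 bases before the start.

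Set against the 8 Helicon4neg_30mpk libraries, vehicle tumors differed in a small share of genes. By limma on log2(CPM + 1) with Benjamini-Hochberg adjustment, 647 of 13373 genes passed (4.84%), of which 351 (2.62%) were higher and 296 (2.21%) lower in vehicle. The title codes nearly separate these groups. Only SH7080 holds both, with 2 vehicle and 5 Helicon4neg_30mpk libraries, Helicon4neg_30mpk library 2 among them. Code and treatment therefore cannot be told apart for most libraries. Within SH7080 limma passed 0 genes, with 1064 at an unadjusted p under 0.05. A fit of 2 against 5 libraries can miss differences, so the 0 does not show that they are absent. Of the 647 genes, 640 had the same sign within SH7080, against 59.2% of all tested genes. The SH7080 libraries also entered the main comparison, so the shared sign is no separate check.

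Helicon4neg_30mpk library 2, the one with the slope of -0.347, decided the count. Without it limma passed 2595 genes, and with the length slope as a covariate 2364, and all 647 were among both. Without Helicon4neg_30mpk library 4 the count was 393.

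TH had the largest difference, with 3.09 to 9.64 CPM in vehicle (median 5.08) against 11.5 to 43.3 CPM (median 23.5) in Helicon4neg_30mpk, so the groups did not overlap. Its log2 difference, vehicle minus Helicon4neg_30mpk on the log2(CPM + 1) scale, was -2.04 ± 0.277 (SE), with adjusted p = 6.26e-05 by limma. Of 17 immediate early genes, which answer growth factors and stress within minutes, 7 were lower in vehicle, against 2.21% of all genes, and 10 did not pass, EGR1 (-0.77, adjusted p = 0.212 by limma) among them. The median of the 17 was -0.40 against -0.00 for all genes. The 7 were FOS (-1.60), FOSB (-1.03), JUN (-0.92), KLF4 (-0.75), JUND (-0.74), DUSP1 (-0.60) and CTGF (-0.47), and FOS was at 2.50 to 16.5 CPM in vehicle against 2.81 to 45.6, overlapping ranges. JUN did not pass with only the 2 groups in the fit (adjusted p = 0.0951 by limma). POTEF (-1.19), POTEE (-1.13), which are near-identical copies that share reads, and the B cell survival receptor TNFRSF13C (-1.04) were the other large falls. The differences within SH7080 were -0.23 for both POTEF and POTEE. They were -2.70 for TH, -1.33 for TNFRSF13C, -0.97 for FOSB and -0.89 for FOS. Of the 11 heat shock genes 4 were higher in vehicle, HSP90AA1 (0.56), HSPA8 (0.42), DNAJA1 (0.41) and HSPD1 (0.29), against 2.62% of all genes. The median of the 11 was 0.21. HSPA6 did not pass (0.22, adjusted p = 0.897 by limma), and its difference was -0.10 without Helicon4neg_30mpk library 2. The chaperone genes HSPH1 (0.34), DNAJB1 (-0.55), HSPA1B (-0.47) and HSPA1A (-0.46) did not pass either, so signs were mixed.

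The largest rises in vehicle were in genes of low level. They were the integrin ITGA8 (0.77), MAMDC4 (0.76), the neuronal serpin SERPINI1 (0.73), BANK1 (0.73), the activin subunit INHBE (0.70) and DSPP (0.68). INHBE rested partly on library 9 (24.3 CPM, the next at 10.2) and DSPP on library 6 (13.4 CPM, the next at 6.74). Within SH7080 the differences were 0.12 for MAMDC4 and 1.24 for INHBE. INHBE did not pass with only the 2 groups in the fit (adjusted p = 0.0647 by limma).

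Of the 12 core Wnt targets 1 passed, against 4.84% of all genes. NOTUM was lower in vehicle, at 387 ± 73.3 CPM (SD, n = 10) against 551 ± 92.0 CPM (SD, n = 8), with a log2 difference of -0.52 and adjusted p = 0.0145 by limma. The median of the 12 was -0.15 against -0.00 for all genes. Among the rest, NKD1 (-0.33, adjusted p = 0.0638), ZNRF3 (-0.33, adjusted p = 0.120) and AXIN2 (-0.20, adjusted p = 0.152) did not pass, but passed without Helicon4neg_30mpk library 2 (adjusted p = 0.0116, 0.00400 and 0.0182 by limma), as did RNF43 (adjusted p = 0.0246), so that 5 of the 12 passed there, against 19.4% of all genes. With the length slope as a covariate NKD1, ZNRF3 and ASCL2 passed (adjusted p = 0.0287, 0.0190 and 0.00519 by limma). AXIN2 (adjusted p = 0.0880) and RNF43 (adjusted p = 0.122) did not. With NOTUM that made 4 of the 12, where 2364 of 13373 genes passed. ASCL2 differed by -0.26 in that fit and by -0.12 without the covariate (adjusted p = 0.783 by limma). CTNNB1 (0.07, adjusted p = 0.489) and APC (-0.03, adjusted p = 0.956) did not pass with or without the covariate. Among the other Wnt lists 0 of 11 ligand and secretion genes passed, 1 of 20 receptor genes (RSPO1), 2 of 17 destruction complex genes (DVL3 and AMER1) and 1 of 18 nuclear genes (CTNNBIP1), all lower in vehicle, where 2.21% of all genes were lower.

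One list held MYC family genes and partners, neighbours of MYC, and the chromosome 13 genes CDX2 and PDX1. Of its 15 genes in the table, 4 were lower in vehicle, against 2.21% of all genes. They were PVT1 (-0.68, adjusted p = 5.11e-05 by limma), FAM84B (-0.62, adjusted p = 0.0198), CASC11 (-0.51) and CDX2 (-0.40, adjusted p = 0.0257). CDX2 did not pass with only the 2 groups in the fit (adjusted p = 0.0596 by limma). MYC itself did not pass, at 5244 ± 845 CPM in vehicle against 6439 ± 935 CPM (-0.30, adjusted p = 0.0782), and did without library 2 (adjusted p = 0.0106). Within SH7080 FAM84B differed by -0.00 and PVT1 by -0.40, neither passing. That subset includes Helicon4neg_30mpk library 2, and its 2 vehicle libraries were the highest of the 10 for FAM84B (3279 and 3103 CPM). Over all codes without library 2, FAM84B differed by -0.75 (adjusted p = 0.000682 by limma). The lineage genes KRT8, KRT18, EPCAM, UCHL1, VIM, FABP2 and DEFA5 did not pass, with differences from -0.09 to 0.15, although UCHL1 did without Helicon4neg_30mpk library 2 (adjusted p = 0.0227 by limma). With the length slope as a covariate KRT18 passed (-0.20, adjusted p = 0.00854 by limma) and the others, UCHL1 included, did not.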

How the data were processed

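The authors deposited 1 table of 13492 genes by 29 libraries, from polyA RNA libraries (2 kits are named, NEBNext Ultra II Directional and TruSeq stranded mRNA). The submitters' processing notes name Trimmomatic 0.39, STAR 2.7.7a, featureCounts (Subread 2.4.2), edgeR 4.0.2 and GRCh38, with no roles. Its values are a signal, read counts per gene that the authors scaled by library size and between libraries (CPM), in whole steps per library that give the depth (26.8 to 60.9 M reads in vehicle); column sums were 0.972 to 1.13 M. Recovered reads failed a unit check in some columns, so no count test was used. CPM per kb divides by the deposited Length. Gene types came from GENCODE 29 (13479 IDs matched).

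Lists, members and tests were chosen with earlier results of these data known. Named genes were the 15 highest, the core Wnt genes, up to 4 per list, the 15 most and 5 least variable, the 6 at each end of the length slope and the 6 largest differences each way. The group comparison used limma 3.58.1 in R 4.3.3 on log2(CPM + 1) (pseudocount 1) over all 4 groups, trend and robust, for genes at 1 CPM or more in at least 5 libraries, threshold 0.05. Tested on data simulated with independent genes and a common dispersion, it recovered 95.2% of 62 genes changed 1.5-fold. The simulation held no length pattern, outlying library or title code, so that rate does not describe the real libraries. Depth per library sets the counting error. Relations used 100000 permutations (n = 10) or exact ones (n = 8). Alternatives changed scaling, pseudocount, filters, libraries and covariates. Some genes are not reported here.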

Additional observations from a re-analysis of the deposited data

Results flagged for a closer look

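Of 211 values examined over the 10 vehicle libraries, 28 had 1 library far from the others. Chance flags about 1 in 20 of independent, normally distributed values. That rate does not apply here, because most values were CPM without logs and every flag was on the high side. Some genes were also picked for their spread or share reads. Library 4 was the outlying one in 11, library 10 in 7 and library 6 in 6. Library 4 was highest for HSPA1A (834 CPM), HSPA1B (1333), EGR1 (20.1), FOS (16.5), JUN (176), RGS2 (10.9), ZFAND2A (23.8), SNAI1 (27.3), MIR3648-1 (20.6) and MIR3648-2 (18.4), and its mean log2 level of the immediate early genes was 4.67 against a median of 4.01.

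Library 6, the one with the lowest length slope, was highest for B2M (644 CPM), DEFA5 (179), DSPP (13.4), EPCAM (42.9), NPM1 (2714) and PCNA (627). Library 10 was highest for RNU1-1 (37.7 CPM), RNU1-2 (37.8), RNU1-3 (37.7), RNU1-4 (37.7), RNVU1-18 (37.8) and RNVU1-7 (37.6), which share reads and are 1 observation, and for KNG1 (5.72). Library 1 was highest for ITGA8 (9.70 CPM) and TGFBI (45.7), library 8 for MT-ATP6 (5667) and library 9 for INHBE (24.3).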

How the results depend on the processing

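The vehicle comparison with Helicon4neg_30mpk moved most: 374 genes passed with only the 2 groups in the fit, 2364 with the length slope as a covariate and 0 within SH7080 (1064 at an unadjusted p under 0.05), and leaving out 1 library gave 393 (Helicon4neg_30mpk 4) to 2595 (Helicon4neg_30mpk 2). With the replicate number as a block 66 passed; same-numbered libraries of the 2 groups had correlations from -0.70 to 0.40, 4 of 8 above 0.1, so the numbers do not pair them. The relation of slope to the ribosomal protein share ran from -0.914 to -0.778 over left-out libraries and was -0.929 within SH7079 (adjusted permutation p = 0.114); the endothelial one ran from -0.920 to -0.799 and was -0.625 there (adjusted permutation p = 0.371). Of the 50 most variable genes 31 remained after a term for the slope, and 35 to 50 over left-out libraries. At a mean of at least 5 CPM 3 epithelial, 3 intestinal factor, 1 enterocyte, 2 endothelial and 3 leukocyte genes counted as detected, against 5, 5, 3, 4 and 5, and with 1 CPM in every library 3 epithelial genes. As Spearman correlations with length, the slopes became 0.418, -0.348, -0.506, 0.325, -0.321, 0.489 and 0.3901 in libraries 1, 4, 6, 7, 8, 9 and 10, a change of scale with the same signs. The GC term was chosen after seeing the data. Planned edgeR and DESeq2 fits, tagwise dispersion included, were not run because recovered reads failed a unit check. Host reads, copy number and RNA integrity were not measured, and depth limits genes near 1 CPM.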
